A study of Rattus norvegicus with 8 samples.

Results

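The 9 genes described here encode the myosin chains of heart muscle and the proteins that act directly on cardiac myosin: the heavy chains Myh6, Myh7 and Myh7b, the light chains Myl2, Myl3, Myl4 and Myl7, the cardiac myosin-binding protein Mybpc3 and the cardiac light chain kinase Mylk3. They were taken by gene name from a table of 21017 rat genes, and each name matched 1 row. RNA was sequenced from cardiomyocytes of neonatal rats of the SD strain, with heart given as the tissue. The tested cells had been transfected with siECHS1, a small interfering RNA named for Echs1, the mitochondrial enoyl-CoA hydratase of fatty acid and valine breakdown, and the control cells with siNC. Both groups were collected 48 h after transfection, with 4 libraries each. Every group is thus a transfected one, and the sources used here do not say whether siECHS1 was 1 duplex or a pool. Nor do they say whether the 4 libraries of a group came from separate cultures, so p-values measure the spread between these libraries, which may be technical.

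Expression was given as FPKM, a read density that is scaled to the length of the gene model and to the size of the library. Library totals recovered from these values ran between 16953309 and 18237111 reads. At least 99.92% of each total lay in the listed genes, so the totals need not hold all reads sequenced. Echs1 itself stood at 0.670, 0.444, 0.424 and 0.525 FPKM in siECHS1 libraries 1 to 4, against 1.66, 1.35, 1.18 and 1.12 FPKM in siNC libraries 1 to 4. Behind these values stand only 11 to 18 reads per siECHS1 library and 29 to 45 per siNC library. The groups did not overlap, but the mean lay under the level needed for the test. A second row with the same best protein match, LOC100911186, averaged 3.38 ± 0.385 FPKM in siECHS1 and 6.61 ± 0.782 FPKM in siNC libraries (SD, n = 4 each, limma adjusted p = 0.00027).

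Myosin is the motor of the sarcomere. Its heavy chain hydrolyses ATP and pulls on actin, and 2 kinds of light chain, an essential and a regulatory one, wrap around the neck of each heavy chain. Rodent hearts use the fast alpha heavy chain, Myh6, and the slower beta chain, Myh7, in proportions that shift around birth and under load or thyroid hormone. Atrial muscle carries its own light chains, Myl7 (regulatory) and Myl4 (essential), while ventricular muscle carries Myl2 and Myl3, and young ventricles also express the atrial forms. Myosin-binding protein C holds heads near the thick filament, and the kinase Mylk3 phosphorylates the ventricular regulatory light chain.

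In siECHS1 libraries the alpha heavy chain and the atrial regulatory light chain were lower, and the beta heavy chain was higher. Of the 9 genes, 4 passed the test across all 12616 genes that averaged 1 FPKM or more (limma on log2(FPKM + 1), Benjamini-Hochberg adjustment, threshold 0.05). Myh7 rose, and Myh6, Myl7 and Mylk3 fell. Among all genes tested 21.0% passed, 8.83% upward and 12.2% downward, and the 4 of 9 are read beside these shares, with no test of the list. All 9 passed the filter on low values, Myh7b only through its siNC libraries, so its values are not support for a difference. The median log2 change of all 9, with Myh7b, was -0.11, against -0.01 over all genes tested. In 6 of the 9 the siECHS1 and siNC libraries did not overlap (1 higher and 5 lower in siECHS1), where 25.2% of all genes tested did not (10.3% higher and 14.9% lower). Myh7b is 1 of the 5 lower and adds no support to this count. In RNA from a whole culture, fewer cells of a type and less RNA per cell cannot be told apart.

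**Figure D1:**
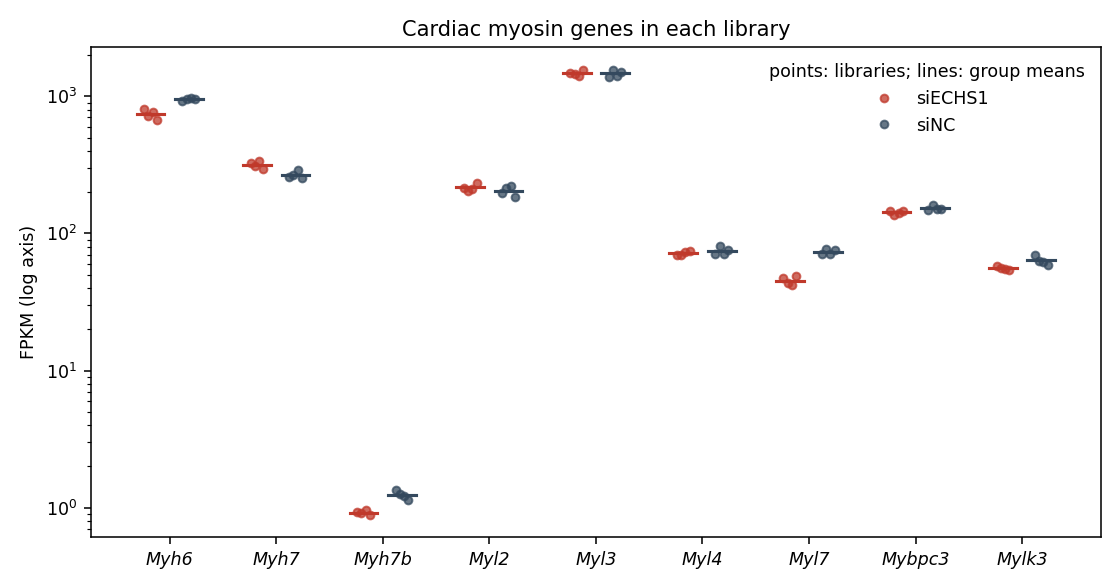
Expression of the 9 cardiac myosin genes, in FPKM on a log axis, with 1 point per library and lines at the group means, siECHS1 left of siNC. Myl7 (41.9 to 48.5 FPKM in siECHS1 libraries, 71.0 to 76.6 FPKM in siNC libraries) and Myh6 (672 to 805 FPKM in siECHS1 libraries, 921 to 966 FPKM in siNC libraries) do not overlap between groups, and the points of Myl2, Myl3 and Myl4 overlap.

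Myh6 and Myh7 lie next to each other on chromosome 15. Myh6 (ENSRNOG00000025757) is listed at chr15:33605654-33629699 and Myh7 (ENSRNOG00000016983) at chr15:33634422-33656089, both on the minus strand and 4722 bases apart, with Myh7 upstream. Each of the 3 heavy chain genes also hosts a microRNA, so that a muscle cell makes the motor and a small RNA from 1 transcript unit. The mature sequences, from RefSeq on GRCr8, are shown because of this shared origin, with the seed, bases 2 to 8, in capitals.
rno-miR-208a-3p, within Myh6: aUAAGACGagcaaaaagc
rno-miR-208b-3p, within Myh7: aUAAGACGaacaaaaggu
rno-miR-499-5p, within Myh7b: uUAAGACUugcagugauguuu
The microRNAs of the alpha and beta heavy chain genes share the seed UAAGACG, and that of Myh7b has UAAGACU. RefSeq places them on GRCr8 at chr15:32395568-32395585 (minus strand), chr15:32421648-32421665 (minus strand) and chr3:164570616-164570636 (plus strand). The table of expression values has a row for Mir208b, which held 3, 1, 0 and 1 reads in siECHS1 libraries 1 to 4, against 1, 1, 0 and 2 reads in siNC libraries 1 to 4, too few for any comparison. Mir208a and Mir499 were not analysed here.

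Myh6, the alpha heavy chain, fell. It stood at 805, 715, 772 and 672 FPKM in siECHS1 libraries 1 to 4, against 921, 949.8, 966 and 956 FPKM in siNC libraries 1 to 4. Every siECHS1 library was under every siNC library, and library 4 of siECHS1 was the lowest. The means were 741 ± 59.0 FPKM in siECHS1 and 948 ± 19.3 FPKM in siNC (SD, n = 4 each), 21.9% lower in siECHS1. The log2 change was -0.36 (SE 0.05, 95% confidence interval -0.48 to -0.24, limma adjusted p = 0.00122). The counts behind it were 72917 to 87837 reads per siECHS1 library and 97062 to 101225 per siNC library. Among libraries the coefficient of variation was 7.96% in siECHS1 and 2.04% in siNC, against 0.353% in siECHS1 and 0.317% in siNC from counting alone.

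Myh7, the beta heavy chain, rose. Its values were 324, 311, 335 and 294 FPKM in siECHS1 libraries 1 to 4, against 259.7, 267, 289 and 252 FPKM in siNC libraries 1 to 4. The groups were separate by a narrow margin, the lowest siECHS1 library lying just above the highest siNC library. Mean levels were 316 ± 17.8 FPKM in siECHS1 and 267 ± 16.0 FPKM in siNC (SD, n = 4 each), a ratio of 1.18. The log2 change was 0.24 (SE 0.05, 95% confidence interval 0.13 to 0.36, limma adjusted p = 0.00865).

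The balance of the heavy chains moved toward the beta form in every siECHS1 library. The Myh6 to Myh7 ratio was 2.48, 2.30, 2.31 and 2.29 in siECHS1 libraries 1 to 4, against 3.55, 3.56, 3.34 and 3.79 in siNC libraries 1 to 4. It averaged 2.34 ± 0.0912 in siECHS1 and 3.56 ± 0.184 in siNC libraries (SD, n = 4 each). The difference of the log2 ratios was -0.60 (SE 0.05, 95% interval -0.73 to -0.43, from inverting the permutation test). Permuting the group labels in all 70 ways (exact, two-sided) gave p = 0.0286, the smallest this can give, and 0.0429 after Benjamini-Hochberg adjustment over the 3 ratios planned. Because both genes are read in the same library, the ratio does not depend on how libraries were scaled to each other. Its coefficient of variation was 3.89% among siECHS1 libraries, beside 7.96% for Myh6 and 5.63% for Myh7, and 5.18% among siNC libraries, beside 2.04% for Myh6 and 5.98% for Myh7. The ratio thus varied less than both of its genes among siECHS1 libraries, but more than Myh6 among siNC libraries.

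Expressed as a share, Myh7 supplied 28.7, 30.3, 30.2 and 30.4% of the summed Myh6 and Myh7 FPKM in siECHS1 libraries 1 to 4, against 22.0, 21.9, 23.1 and 20.9% in siNC libraries 1 to 4. Alpha remained the larger component in all 8 libraries. The rise of Myh7 was smaller in FPKM than the fall of Myh6, and the summed level of both was 1057 ± 75.2 FPKM in siECHS1 and 1215 ± 30.7 FPKM in siNC libraries (SD, n = 4 each), without overlap. Their coding sequences are close copies, and the sources used here do not say how reads that match both were counted.

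**Figure D2:**
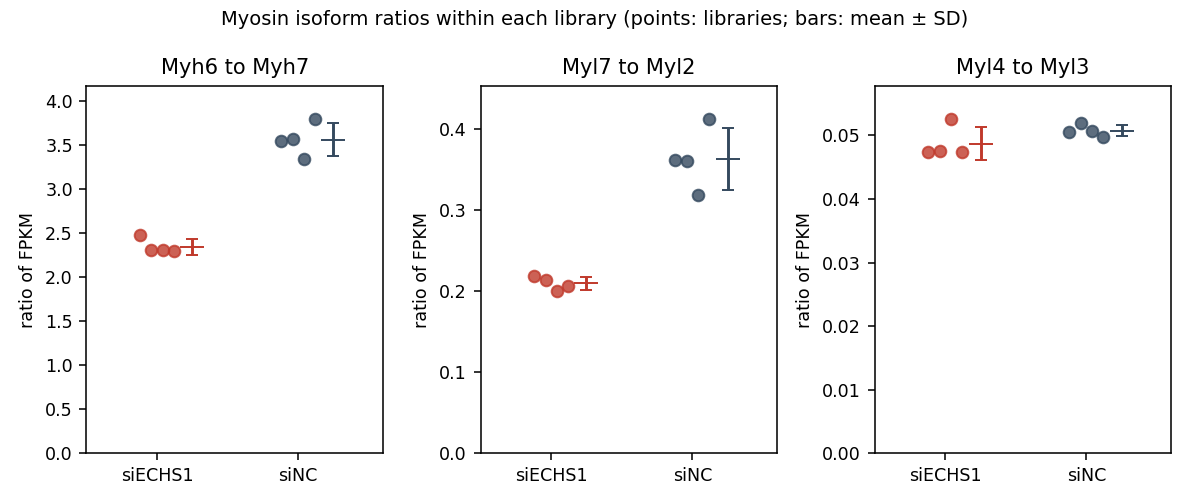
Ratios of FPKM within each library for Myh6 to Myh7, Myl7 to Myl2 and Myl4 to Myl3, with 1 point per library and bars of mean ± SD, siECHS1 left of siNC. The Myh6 to Myh7 ratio (2.29 to 2.48 in siECHS1, 3.34 to 3.79 in siNC) and the Myl7 to Myl2 ratio (0.200 to 0.218 in siECHS1, 0.319 to 0.412 in siNC) do not overlap between groups, and the Myl4 to Myl3 ratio does.

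Myh7b (ENSRNOG00000018997, chr3:151126591-151150344, plus strand), a slow-type heavy chain gene of low protein output in mammalian heart, was measured near the filter. It stood at 0.924, 0.909, 0.956 and 0.884 FPKM in siECHS1 libraries 1 to 4, against 1.35, 1.26, 1.21 and 1.14 FPKM in siNC libraries 1 to 4. All siECHS1 values were under all siNC values, but the gene did not pass the test (log2 change -0.22, SE 0.08, 95% confidence interval -0.39 to -0.05, limma adjusted p = 0.0634). Behind these values stand only 97 to 102 reads per siECHS1 library and 121 to 150 per siNC library. The coefficient of variation was 3.28% among siECHS1 and 7.16% among siNC libraries, against 9.98% in siECHS1 and 8.70% in siNC from counting alone. With no filter the adjusted p was 0.0350, and on recovered reads (voom in limma, an alternative chosen after seeing the data) the log2 change was -0.43 with an adjusted p of 0.00598. The gene passed the main filter, which voom also used, only through its siNC libraries. Neither value is therefore support for a difference.

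Among the light chains, the atrial regulatory chain Myl7 was the member that moved most. Myl7 (ENSRNOG00000014409, chr14:86143862-86147553, minus strand) stood at 47.1, 43.7, 41.9 and 48.5 FPKM in siECHS1 libraries 1 to 4, against 71.1, 76.6, 71.0 and 75.8 FPKM in siNC libraries 1 to 4. The gap between the groups was far wider than the spread within either. Mean levels were 45.3 ± 3.02 FPKM in siECHS1 and 73.6 ± 3.00 FPKM in siNC (SD, n = 4 each), so siECHS1 cells held 61.6% of the siNC level, 1.62-fold less. The log2 change was -0.69 (SE 0.05, 95% confidence interval -0.80 to -0.58, limma adjusted p = 2.86e-05), on 1515 to 1801 reads per siECHS1 and 2514 to 2732 per siNC library.

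Its ventricular counterpart Myl2 (ENSRNOG00000030848, chr12:39951987-39958239, minus strand), the regulatory light chain that Mylk3 phosphorylates, did not pass the test. Values were 216, 204, 210.0 and 235 FPKM in siECHS1 libraries 1 to 4, against 197, 213, 222 and 184 FPKM in siNC libraries 1 to 4, with overlapping groups. The log2 change was 0.09 (SE 0.06, 95% confidence interval -0.05 to 0.22, limma adjusted p = 0.364). That interval does not reach the size of the Myl7 change.

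Within each library, Myl7 was thus lower relative to Myl2. The Myl7 to Myl2 ratio was 0.218, 0.214, 0.200 and 0.207 in siECHS1 libraries 1 to 4, against 0.361, 0.360, 0.319 and 0.412 in siNC libraries 1 to 4. The difference of the log2 ratios was -0.79 (SE 0.08, 95% interval -1.04 to -0.55), with an exact two-sided permutation p of 0.0286, adjusted to 0.0429 over the 3 ratios. The siNC libraries spread more than the siECHS1 libraries, with coefficients of variation of 3.90% in siECHS1 and 10.5% in siNC. As a share of the regulatory light chain FPKM, Myl7 made up 17.3% ± 0.560 in siECHS1 and 26.6% ± 2.04 in siNC libraries (SD, n = 4 each).

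The essential light chains gave no difference past the threshold. Myl4 (ENSRNOG00000050675, chr10:92628356-92638100, plus strand), the atrial essential chain, stood at 69.9, 69.4, 73.2 and 74.0 FPKM in siECHS1 libraries 1 to 4, against 70.2, 81.1, 71.2 and 75.3 FPKM in siNC libraries 1 to 4. Its groups overlapped, and it did not pass the test (log2 change -0.05, SE 0.05, 95% confidence interval -0.16 to 0.05, limma adjusted p = 0.475). Myl3 (ENSRNOG00000020955, chr8:119030875-119036996, plus strand), the ventricular essential chain and the most abundant member, stood at 1473, 1462, 1393 and 1563 FPKM in siECHS1 libraries 1 to 4, against 1389, 1562, 1403 and 1513 FPKM in siNC libraries 1 to 4. Here too the groups overlapped (log2 change 0.01, SE 0.05, 95% confidence interval -0.11 to 0.12, limma adjusted p = 0.947).

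The Myl4 to Myl3 ratio was 0.0474, 0.0475, 0.0525 and 0.0474 in siECHS1 libraries 1 to 4, and averaged 0.0487 ± 0.00255 there and 0.0507 ± 0.000895 in siNC libraries (SD, n = 4 each). The log2 ratios differed by -0.06 (SE 0.04, 95% interval -0.13 to 0.07, exact two-sided permutation p = 0.143, also 0.143 after adjustment over the 3 ratios). A direct comparison of the atrial chains, chosen after their values were seen, gave a Myl7 to Myl4 ratio of 0.675, 0.629, 0.573 and 0.655 in siECHS1 libraries 1 to 4, against 1.01, 0.944, 0.997 and 1.01 in siNC libraries 1 to 4. The log2 ratios differed by -0.65 (SE 0.06, 95% interval -0.82 to -0.49, exact permutation p = 0.0286, adjusted to 0.0381 over 4 ratios). Myl7 was thus lower relative to the other atrial light chain as well as to its ventricular counterpart.

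Together, Myl4 and Myl7 supplied 6.48, 6.36, 6.70 and 6.38% of the FPKM of the 4 light chains in siECHS1 libraries 1 to 4, against 8.18, 8.16, 8.04 and 8.17% in siNC libraries 1 to 4. The mean share was 1.66 percentage points lower in siECHS1, given as a description without a test. The summed level of the 4 light chains overlapped between groups, at 1806 ± 84.7 FPKM in siECHS1 and 1819 ± 90.9 FPKM in siNC libraries (SD, n = 4 each).

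**Figure D3:**
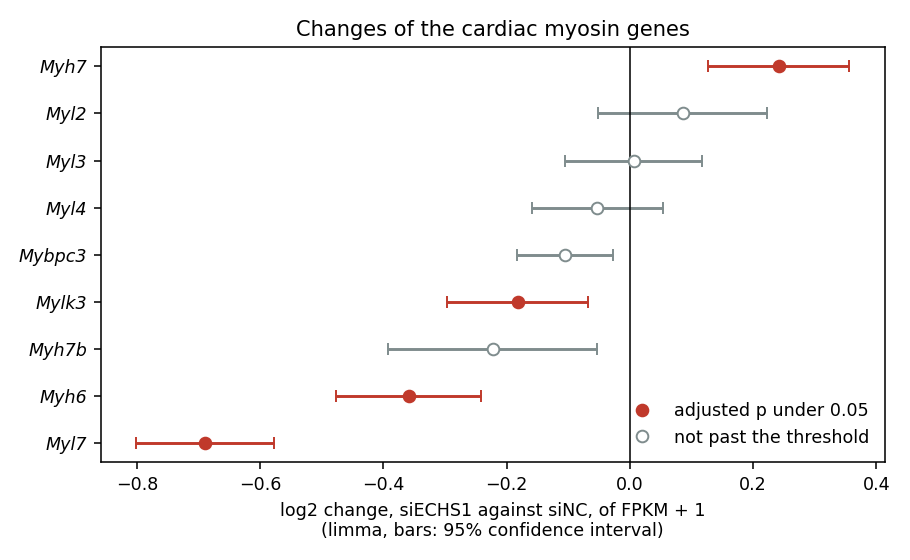
The log2 change of each of the 9 genes, siECHS1 against siNC, on the log2(FPKM + 1) scale, with 95% confidence intervals from limma and filled points for adjusted p under 0.05. Myl7 at -0.69 and Myh6 at -0.36 lie to the left, Myh7 at 0.24 is the only filled point to the right, and the intervals of Myl2, Myl3 and Myl4 cross 0.

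Of the proteins that act on the thick filament, Mylk3 fell and Mybpc3 did not pass the test. Mylk3 (ENSRNOG00000017546, chr19:27404712-27441536, plus strand), the cardiac kinase of the regulatory light chain, stood at 57.9, 56.1, 55.0 and 54.1 FPKM in siECHS1 libraries 1 to 4, against 70.1, 63.2, 62.3 and 58.5 FPKM in siNC libraries 1 to 4. The groups did not overlap, with only a small gap between the highest siECHS1 and the lowest siNC library. The log2 change was -0.18 (SE 0.05, 95% confidence interval -0.30 to -0.07, limma adjusted p = 0.0304). This call was lost without siECHS1 library 2, 3 or 4 or siNC library 2 or 3, with adjusted p between 0.0563 and 0.0684, and under quantile normalization or with no filter (0.0616 each).

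Mybpc3 (ENSRNOG00000012307, chr3:79940561-79958730, plus strand), the cardiac myosin-binding protein C, stood at 145, 137, 141 and 146 FPKM in siECHS1 libraries 1 to 4, against 149, 160.2, 151 and 152 FPKM in siNC libraries 1 to 4. It was lower in every siECHS1 library but did not pass the test (log2 change -0.11, SE 0.03, 95% confidence interval -0.18 to -0.03, limma adjusted p = 0.0567). It passed with quantile normalization (0.0248), with a filter of 5 FPKM (0.0493), on recovered reads (0.0402) and without siECHS1 library 4 (0.0456).

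Ordered by mean FPKM, the genes ran Myl3, Myh6, Myh7, Myl2, Mybpc3, Myl4, Mylk3, Myl7 and Myh7b in siECHS1 libraries, and no neighbours in that order overlapped. In siNC libraries Myl7 stood between Myl4 and Mylk3, and its values overlapped those of Myl4. FPKM are levels per length of the gene model. The model lengths recovered from the values are 2064 bases for Myl7, 795 for Myl4 and 480 for Myl2. Levels between genes thus depend on these models, whereas changes between groups do not. The 9 genes took 0.867% ± 0.0406 of the recovered library total in siECHS1 and 0.975% ± 0.0210 in siNC libraries (SD, n = 4 each).

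Other myosin genes moved in both directions. Of 17 other myosin chains and binding proteins in the table, 13 could be tested, 2 rose and 3 fell, with a median log2 change of -0.05. Over all genes tested 8.83% rose and 12.2% fell. The embryonic heavy chain Myh3 rose, with 5.44 ± 0.424 FPKM in siECHS1 and 4.11 ± 0.493 FPKM in siNC libraries (limma adjusted p = 0.0158). Non-muscle heavy chain Myh10 also rose, with 62.8 ± 3.77 FPKM in siECHS1 and 49.4 ± 3.11 FPKM in siNC libraries (limma adjusted p = 0.00185). Of the light chains that partner smooth and non-muscle myosin, Myl9 and Myl6 fell, while Myl12a (log2 change 0.03, limma adjusted p = 0.729) and Myl12b (-0.05, adjusted p = 0.314) did not pass the test. Myl9 stood at 637, 652, 651 and 714 FPKM in siECHS1 libraries 1 to 4, against 920, 951, 906 and 987 FPKM in siNC libraries 1 to 4 (log2 change -0.50, limma adjusted p = 8.57e-05). Myl6 averaged 431 ± 35.3 FPKM in siECHS1 and 579 ± 26.6 FPKM in siNC libraries (limma adjusted p = 0.000662). Mylpf, the fast skeletal regulatory light chain, was called at 12.9 ± 0.841 FPKM in siECHS1 and 15.2 ± 1.01 FPKM in siNC (limma adjusted p = 0.0259), but its groups overlapped and the call was lost in 8 of 15 alternatives. The rows of Myh2, Myh8, Myh9 and Mybpc1 were under the filter, which does not show that these genes are silent in the cells.

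A further list held light chain kinases, the myosin phosphatase and its kinases, calmodulin and myosin chaperones, with Calm2 in separate rows. Of its 18 tested rows, 4 fell and 0 rose by limma (median log2 change -0.04), beside 12.2% of all genes tested that fell and 8.83% that rose. With 21.0% called in either direction over all genes, 4 of 18 is near the background. At an unadjusted p under 0.05, 7 were lower and 0 higher, and voom on recovered reads also called 4 lower and 0 higher. The shares of all genes at these settings are not given here, so these counts cannot be read against a background. Prkaca, the catalytic subunit of protein kinase A that phosphorylates Mybpc3, averaged 77.0 ± 1.89 FPKM in siECHS1 and 92.8 ± 1.26 FPKM in siNC libraries (limma adjusted p = 0.000328). Ppp1r12c, a myosin phosphatase targeting subunit, averaged 33.0 ± 0.507 FPKM in siECHS1 and 38.9 ± 0.865 FPKM in siNC (limma adjusted p = 0.000991). Both UNC45 myosin chaperones fell: Unc45b, the striated muscle form, averaged 61.5 ± 1.25 FPKM in siECHS1 and 68.7 ± 3.12 FPKM in siNC (limma adjusted p = 0.0165), and Unc45a averaged 30.2 ± 1.38 FPKM in siECHS1 and 35.8 ± 1.48 FPKM in siNC (limma adjusted p = 0.00434).

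Among 20 transcription regulators known for choosing between myosin genes, 7 fell and 0 rose by limma (median log2 change -0.09), beside 12.2% of all genes tested that fell and 8.83% that rose. At an unadjusted p under 0.05, 8 were lower and 1 higher, and voom on recovered reads called 7 lower and 1 higher. Those counts are not to be set against the 12.2% and 8.83%, which belong to limma adjusted p. The shares of all genes at these settings are not given here. Thra, the thyroid hormone receptor alpha, whose hormone activates Myh6 and represses Myh7 in rodent heart, stood at 19.0, 18.7, 18.6 and 18.4 FPKM in siECHS1 libraries 1 to 4, against 24.6, 24.2, 24.3 and 24.7 FPKM in siNC libraries 1 to 4. Its groups were tight and far apart (log2 change -0.37, limma adjusted p = 9.97e-05). Irx4, a homeobox factor of ventricular muscle, stood at 32.1, 31.3, 32.2 and 31.8 FPKM in siECHS1 libraries 1 to 4, against 42.4, 41.3, 42.3 and 42.5 FPKM in siNC libraries 1 to 4 (log2 change -0.39, limma adjusted p = 4.53e-05). The cardiac factor Gata4 averaged 115 ± 1.17 FPKM in siECHS1 and 135 ± 6.23 FPKM in siNC libraries (limma adjusted p = 0.00165). The others that fell were Srf, Mef2d, Hey2 and Tbx5, with log2 changes between -0.25 and -0.18, and the call of Tbx5 was lost in 8 of 15 alternatives. The receptor Thrb did not pass the test, with 1.95 ± 0.185 FPKM in siECHS1 and 2.13 ± 0.101 FPKM in siNC libraries (limma adjusted p = 0.463). Nkx2-5 stood at 82.4 to 93.7 FPKM in siECHS1 libraries and at 46.9 FPKM in siNC library 2, against 96.2 to 99.4 FPKM in the other siNC libraries. It was not called with all libraries (log2 change 0.10, SE 0.20, limma adjusted p = 0.778), and without siNC library 2 it fell (-0.16, SE 0.05, adjusted p = 0.0413).

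Other chamber genes did not all move with Myl7. Of 10 tested atrial genes beside the members, 2 rose and 1 fell by limma (median log2 change 0.07). At an unadjusted p under 0.05, 2 were higher and 3 lower, and voom on recovered reads called 2 higher and 1 lower. Over all genes tested 8.83% rose and 12.2% fell by limma adjusted p, and the limma counts of both chamber lists are read beside these shares. Neither list has a share of all genes beside its unadjusted or voom counts. Nppa, which encodes atrial natriuretic peptide and is also made by young ventricles, stood at 3553, 3591, 3258 and 3926 FPKM in siECHS1 libraries 1 to 4, against 2747, 3158, 2872 and 2947 FPKM in siNC libraries 1 to 4 (limma adjusted p = 0.00899). The gap junction gene Gja5 also rose, with 20.4 ± 1.04 FPKM in siECHS1 and 16.6 ± 0.802 FPKM in siNC libraries (limma adjusted p = 0.00311). Stard10 fell, with 3.70 ± 0.661 FPKM in siECHS1 and 5.53 ± 0.533 FPKM in siNC libraries (limma adjusted p = 0.00987). Of 6 tested ventricular genes beside the members, 2 fell and 0 rose by limma (median log2 change -0.10), and the counts were the same at an unadjusted p under 0.05 and by voom on recovered reads. The 2 were Irx4 and Hey2, which also stand among the regulators.

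**Figure D4:**
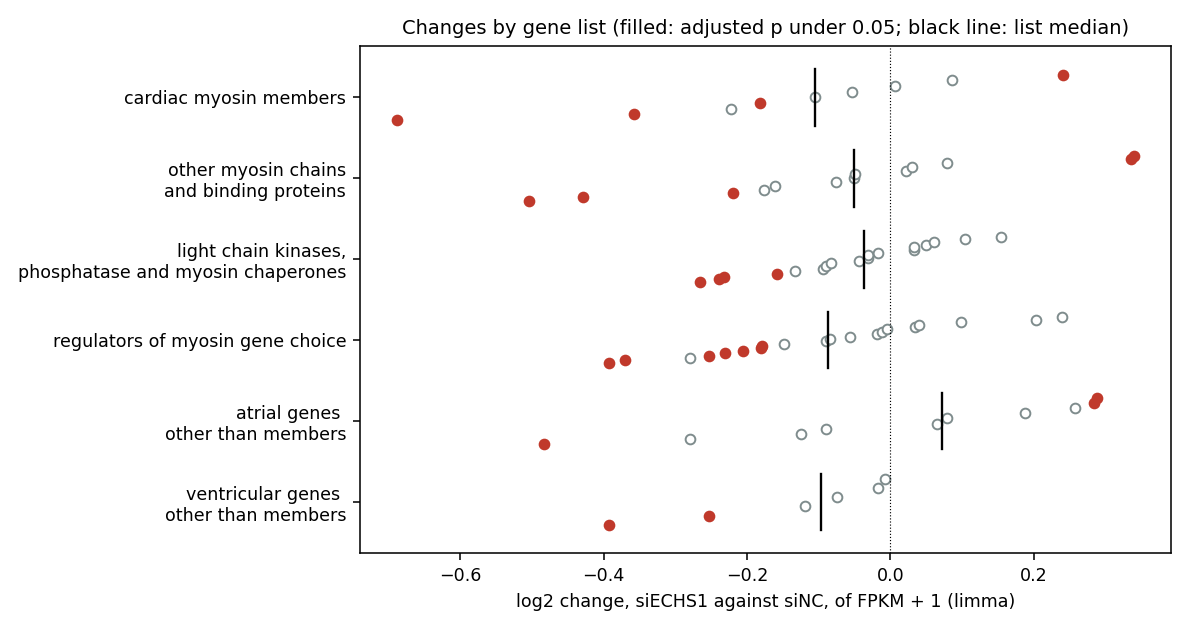
The log2 change, siECHS1 against siNC, of every tested gene in the 9 members and in 5 lists of related genes, with filled points for adjusted p under 0.05 and a black line at each median. The members span -0.69 (Myl7) to 0.24 (Myh7), the filled points of the regulators all lie left of 0, and the atrial list has filled points on both sides.

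Markers of the labelled cell type and of other cells were read in the same libraries. Their counts stand beside 8.83% of all genes tested that rose and 12.2% that fell. Of 10 tested cardiomyocyte markers other than the members, 1 rose (Actc1) and 3 fell (Tnni3, Tnnc1 and Ckm). Their summed level was 6770 to 7613 FPKM in siECHS1 and 6573 to 6764 FPKM in siNC libraries, without overlap by a narrow margin. The call of Actc1 was lost with no filter and without siECHS1 library 1 or siNC library 3. Of 8 tested fibroblast markers, 5 rose (Col1a1, Col3a1, Dcn, Postn and Fap) and 1 fell (Lum), the call of Fap being lost in 7 of 14 alternatives. Pdgfra (log2 change -0.03, limma adjusted p = 0.812) and Tcf21 (-0.02, adjusted p = 0.890) did not pass the test. The summed level of the fibroblast markers was 3647 to 4018 FPKM in siECHS1 and 2797 to 2998 FPKM in siNC libraries, without overlap. Most of this sum was Col1a1, which averaged 2768 FPKM in siECHS1 and 2087 FPKM in siNC libraries. The part of the fibroblast markers in the myosin changes was not tested. Of 8 smooth muscle and pericyte markers, 1 rose (Acta2, lost in 6 of 15 alternatives) and 2 fell (Tagln, and Smtn, lost in 11 of 15), with summed levels of 4150 to 4516 FPKM in siECHS1 and 4346 to 4446 FPKM in siNC libraries. Endothelial markers summed to 35.3 to 38.0 FPKM in siECHS1 and 35.9 to 39.2 FPKM in siNC libraries, and macrophage and leukocyte markers to 27.6 to 30.3 FPKM in siECHS1 and 27.7 to 28.2 FPKM in siNC libraries, with Ptprc, Adgre1, C1qa, C1qb and Cd163 averaging under 1 FPKM. Of the 3 tested macrophage and leukocyte markers, Cd68 rose, with 11.3 ± 0.776 FPKM in siECHS1 and 8.88 ± 0.241 FPKM in siNC libraries (limma adjusted p = 0.00282), and Csf1r fell, with 6.89 ± 0.236 FPKM in siECHS1 and 9.12 ± 0.421 FPKM in siNC libraries (limma adjusted p = 0.000974). Erythroid, epicardial, Schwann and skeletal muscle markers summed to under 20 FPKM in every library, and Myod1 and Myog, which define skeletal muscle, averaged under 1 FPKM in each group, with Myog at 1.36 FPKM in siECHS1 library 2. Esam fell among the endothelial and Wt1 among the epicardial markers, and the call of Wt1 was lost in 7 of 14 alternatives.

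The genes whose profiles over the 8 libraries lay nearest to those of Myl7, Myh6 and Myh7 were listed. Likeness was the root mean squared difference of centred log2(FPKM + 1) values over 8 libraries, among 12607 genes. This measure keeps the size and direction of a change, so chains that changed differently have different nearest genes. For Myl7 the nearest were Cited1 (difference 0.0486), Eno3 (0.0493) and Ptgds (0.0764). Cited1, a transcriptional co-regulator, averaged 27.4 ± 2.18 FPKM in siECHS1 and 44.2 ± 0.716 FPKM in siNC libraries, and Eno3, the muscle enolase, averaged 8.17 ± 0.436 FPKM in siECHS1 and 12.9 ± 0.630 FPKM in siNC libraries. Nearest to Myh6 were Hif1an (0.0288), Wnt2b (0.0418) and Rgp1 (0.0432), and nearest to Myh7 were Ergic2 (0.0345), Tbc1d5 (0.0353) and Hk2 (0.0396). These genes were picked for their likeness, so their changes are a description.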

How the data were processed

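RNA was sequenced in 8 libraries, 4 per group, made from 1 µg of total RNA with an Illumina TruSeq RNA kit, which does not mark strand, per the labels' protocols. The authors deposited FPKM per Ensembl rat gene, with coordinates as printed here and no build named in the header. The submitters' processing notes name Bowtie 0.12.2 and the builds Rnor_6.0 and mm8, with no role given. The sources used here do not give the counting tool, the strand setting or the treatment of reads with several matches. Rows overlapping Myh6 and Myh7 held at most 3 reads per library.

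Low FPKM values step in whole reads, which gave reads per gene and library totals. Of 144519 values above 0, 100% were whole within 0.01 of a read. Each gene length was the smallest at which every library held whole reads within this limit, so the share is not an independent check. The recovered reads serve to state depth and for 1 added alternative.

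The scale was log2(FPKM + 1), a gene was tested if it averaged 1 FPKM or more (12616 of 21017), and groups from the labels were compared with limma 3.58.1 in R 4.3.3 (variance trend, two-sided, Benjamini-Hochberg over all genes). Fold changes on this scale understate those of low genes. Ratios were compared by exact permutation in SciPy 1.17.1. Python 3.11.15 was used for the tables (pandas 2.3.3) and the figures (matplotlib 3.10.9). The fit and the read recovery were tested on simulated data. Alternatives were another pseudocount, filter and scaling, each library left out, the replicate block and voom on recovered reads.

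The genes named are the 9 members, Echs1, Mir208b, genes past the threshold in 5 related lists and the 3 nearest profiles of Myl7, Myh6 and Myh7. Thrb, Nkx2-5, LOC100911186 and the marker genes named were added after values were seen. Members and lists were chosen with earlier results of these data known. RefSeq windows around gene starts exist here for 8 members, but 6 of these starts lie 549 to 26417 bases inside the RefSeq span of the gene, so none is printed.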

Additional observations from a re-analysis of the deposited data

Results flagged for a closer look

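In 142 groups of 4 libraries (71 values in each of the 2 groups), the highest or lowest library was compared with its neighbour, and 12 lay apart by Dixon's ratio above its 95% critical value. Chance alone gives about 1 in 20. In siECHS1 library 1 the Myh6 to Myh7 ratio was 2.48, against 2.29 to 2.31 in the other siECHS1 libraries, and the Myh7 share of both heavy chains was 28.7%, against 30.2 to 30.4%. This library was the siECHS1 library nearest to the siNC values, and its ratio still lay under every siNC ratio. In siECHS1 library 3 the Myl4 to Myl3 ratio was 0.0525, against 0.0474 to 0.0475 in the others, the value that makes the groups overlap. In siNC library 3 the atrial share of light chain FPKM was 8.04%, against 8.16 to 8.18%.

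Among related genes, Gata4 stood at 144 FPKM in siNC library 4, against 131 to 132 FPKM in the others, and Nkx2-5 at 46.9 FPKM in siNC library 2, against 96.2 to 99.4 FPKM. Med13 stood at 6.39 FPKM in siNC library 1, against 5.07 to 5.24 FPKM, and Fhl2 at 283 FPKM in siNC library 4, against 279.7 to 280.1 FPKM. Wnt2b, near Myh6 in profile, stood at 4.94 FPKM in siNC library 4, against 4.40 to 4.46 FPKM. Among markers, Tnnc1 stood at 576 FPKM in siECHS1 library 4, against 510.2 to 521 FPKM, Col3a1 at 534 FPKM in siNC library 3, against 507.1 to 507.5 FPKM, and Lum at 23.8 FPKM in siNC library 3, against 26.6 to 27.1 FPKM.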

How the results depend on the processing

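Myh6, Myh7 and Myl7 kept direction and call in all 15 alternatives. Leaving out 1 library, the difference of log2 ratios ran between -0.63 and -0.57 for Myh6 to Myh7, -0.85 and -0.72 for Myl7 to Myl2 and -0.68 and -0.60 for Myl7 to Myl4, each at an exact permutation p of 0.0571, the smallest that 4 against 3 libraries allow. For Myl4 to Myl3 it ran between -0.097 and -0.047 (exact permutation p between 0.0571 and 0.286), the first without siECHS1 library 3, and its sign-flip p with the replicate block was 0.25. Same-numbered libraries deviated with correlations of 0.17, -0.05, 0.01 and 0.08, and differently numbered ones with correlations between -0.15 and 0.10. These weak correlations cannot decide whether the numbers pair the libraries. With the replicate block the exact sign-flip p of the 3 ratios, at -0.60, -0.79 and -0.65, was 0.125, the smallest 4 pairs allow, and 4 members and 2952 genes were called, against 4 and 2655 without it. Mylk3 lost its call with no filter (-0.18) and quantile normalization (-0.17), and ran between -0.22 and -0.13 with libraries left out. Mybpc3 passed with a filter of 5 FPKM (-0.11), quantile normalization (-0.12) and voom on recovered reads (-0.11), and ran between -0.12 and -0.083 with libraries left out. Myh7b passed with no filter (-0.22) and voom (-0.43), which is not support for a difference, as it passed the main filter only through its siNC libraries. Myl3, never called, ran between -0.023 and 0.037 with libraries left out and changed sign without siECHS1 library 4 (-0.023) and without siNC library 1 (-0.019) or 3 (-0.014). Nkx2-5 ran between -0.16 and 0.19 with libraries left out and was negative without siNC library 2 (-0.16). The cause of these changes was not tested.

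Members called numbered 3 to 4 with a library left out, 5 of 8 tested with a filter of 5 FPKM and 6 with voom. The 6 include Myh7b, which adds no support to this count. Genes called ranged between 1894 and 2952 over all alternatives, and the share called by voom alone is not given here. Median-of-ratios scaling gave 1288 genes higher and 1242 lower, against 1114 and 1541. Taken as the mean of the Myl4 and Myl7 pair shares, the atrial share differed by -4.73 points between siECHS1 and siNC, against -1.66 as a summed share. Of 46 other genes named with a call, 39 kept it in every alternative. Depth limits Myh7b, Mir208b and Echs1.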
